A study of Mus musculus with 2 samples.

Results

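The genes described are 10 amino acid transporter genes of mouse CD4+ T cells: *Slc7a5*, *Slc3a2*, *Slc7a1*, *Slc7a6*, *Slc1a4*, *Slc1a5*, *Slc38a1*, *Slc38a2*, *Slc43a1* and *Slc6a6*. They were taken by name as carriers of neutral, cationic and large neutral amino acids, and all 10 were found among 19938 genes with a probe set of their own. The rule that chose them uses names and no threshold on a measured value, but the choice was made with earlier results of these data known. Where a gene had several probe sets, the one with the highest mean signal represented it.

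The array data compare CD3+CD4+ T cells sorted from the pancreatic lymph nodes (PLN) of BDC mice given nondepleting anti-CD4 antibody (ND αCD4, clone YTS177) or isotype control Ab (clone 2A3, a rat IgG2a). Cells of both pools were taken 48 hours after treatment, the mice were 8 weeks old per the labels, and a dose of 1 mg is written beside the isotype control Ab and not clearly for YTS177, with age and agent entered under each other's heading. BDC mice are NOD mice that carry transgenes for both chains of a diabetogenic T cell receptor, so their CD4+ T cells are largely of a single islet specificity. Lymph nodes of 3 mice were pooled for the sort according to the methods, and each condition has 1 array. No replicate stands behind any difference, so p values are left out, and precision is limited by having 2 arrays in all. With bulk RNA, fewer cells of a given kind and less RNA per cell cannot be told apart.

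Amino acid transporters set how much leucine, glutamine, arginine and other building material a T cell can take up. Resting T cells carry few of them, and stimulation through the T cell receptor raises several, since a dividing cell must make protein and keep the growth kinase complex mTORC1 active. The best known is the CD98 complex, in which the heavy chain encoded by *Slc3a2* holds a light chain such as LAT1, the product of *Slc7a5*, at the cell surface. LAT1 takes up leucine and other large neutral amino acids in exchange for intracellular ones. ASCT2 (*Slc1a5*) and the sodium-coupled carriers SNAT1 and SNAT2 (*Slc38a1* and *Slc38a2*) carry glutamine and small neutral amino acids, and CAT1 (*Slc7a1*) carries arginine and lysine.

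*Slc7a5* was the only gene of the 10 that passed a 1.5-fold difference, and it was 1.60-fold lower after ND αCD4. *Slc3a2*, which encodes its partner chain, had nearly equal signals in the 2 arrays. The arginine carrier gene *Slc7a1* and the light chain gene *Slc7a6* were lower by smaller amounts, and *Slc38a1*, *Slc1a5*, *Slc38a2* and *Slc6a6* lay close to 0. *Slc43a1* and *Slc1a4* were at the background of the array. Each difference is a log2 ratio, the deposited log2 signal with ND αCD4 minus that with isotype control Ab.

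A gene was called detected when its signal exceeded background in at least 1 array. Background was the 95th percentile of 1210 probe sets for olfactory and vomeronasal receptors, genes with no known role in T cells, and came to 7.64 with isotype control and 7.56 with ND αCD4. Of the 10 transporter genes, 8 exceeded it in both arrays, *Slc43a1* in the ND αCD4 array only, and *Slc1a4* in neither. Over all 13222 detected genes the median log2 ratio was -0.01, 52.7% were below 0 and 46.7% above 0, and the middle 95% of genes lay between -0.39 and 0.28. At least 1.5-fold lower were 133 of them (1.01%) and at least 1.5-fold higher were 28 (0.212%). Among the 9 detected transporter genes, 1 was lower and 0 were higher by this rule. Their median log2 ratio was -0.06, with 6 below 0 and 3 above 0, and over the 8 genes above background in both arrays it was -0.10. With counts this small, the share of transporter genes past 1.5-fold cannot be read as different from the background share.

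Among the large neutral amino acid carriers, *Slc7a5* had a signal of 11.64 with isotype control and 10.96 with ND αCD4, a log2 ratio of -0.68. Only 97 of the 13222 detected genes (0.734%) had a log2 ratio this low or lower. The gene thus lay near the low end of the whole distribution, while its heavy chain partner lay near the middle. *Slc3a2* had signals of 12.83 and 12.79, a log2 ratio of -0.03, and 42.3% of detected genes were as low or lower. The log2 ratio of the light chain gene was 0.64 below that of the heavy chain gene (a difference of -0.64).

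*Slc7a6* encodes y+LAT2, another light chain of CD98, which exchanges cationic for neutral amino acids. Its signal was 10.81 with isotype control and 10.64 with ND αCD4, a log2 ratio of -0.17. Both light chain genes were lower, and the log2 ratio of *Slc7a5* minus that of *Slc7a6* was -0.51. Other genes for light chains of CD98 were looked at because of their pairing with *Slc3a2*, after their values were known. *Slc7a7*, *Slc7a8* and *Slc7a11* were below background throughout, and *Slc7a10* had signals of 8.45 and 8.46.

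*Slc43a1* encodes LAT3, which carries large neutral amino acids without a heavy chain. It gave 7.48 with isotype control, below background, and 7.58 with ND αCD4, just above background. No fold is given for it, and its log2 ratio of 0.10 turned to -0.06 when values were floored at background. The related *Slc43a2*, which encodes LAT4 and belongs to the wider list of transporters below, was measured well above background, at 10.28 and 10.55. Its log2 ratio of 0.28 was in the opposite direction to that of *Slc7a5*, and 2.51% of detected genes were as high or higher. Genes for carriers of the same class of amino acids therefore differed in sign in these arrays.

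**Figure D1:**
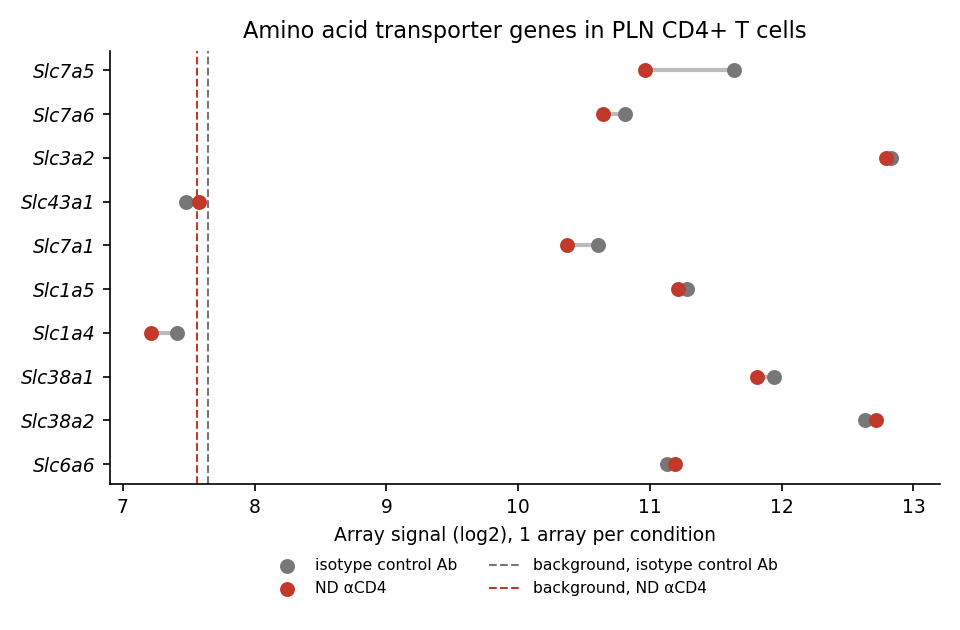
Array signal (log2, horizontal axis) of the 10 transporter genes after isotype control Ab (gray) or ND αCD4 (red), 1 array per condition, joined by a line for each gene, and dashed lines at the background of each array. *Slc7a5* goes from 11.64 to 10.96, *Slc3a2* from 12.83 to 12.79, and *Slc43a1* and *Slc1a4* sit at or below background. Levels should be compared within a gene only, as probes differ between genes.

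*Slc7a1*, the gene for the arginine and lysine carrier CAT1, had the lowest log2 ratio of the transporter genes after *Slc7a5* among those above background in both arrays. Its signal was 10.60 with isotype control and 10.37 with ND αCD4, a log2 ratio of -0.23. This is 1.18-fold lower, short of the 1.5-fold rule, and 7.69% of all detected genes were as low or lower.

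Among the carriers of glutamine and small neutral amino acids, no gene reached 1.5-fold. *Slc1a5* had signals of 11.28 with isotype control and 11.22 with ND αCD4, a log2 ratio of -0.06. *Slc38a1* had signals of 11.94 and 11.81, a log2 ratio of -0.13, and its other, dimmer probe set had a log2 ratio of -0.04. The sign was the same in both probe sets of *Slc38a1*, the sole transporter gene here with more than 1 probe set.

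*Slc38a2* was on the other side of 0, with signals of 12.63 with isotype control and 12.72 with ND αCD4 and a log2 ratio of 0.09. SNAT2, its product, is known to be induced when cells run short of amino acids. *Slc1a4*, which encodes the alanine, serine and cysteine carrier ASCT1, was below background with both antibodies (7.41 and 7.21), so no fold is given. *Slc6a6* encodes the transporter of taurine and had signals of 11.13 and 11.19, a log2 ratio of 0.06.

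A rough scale for these small values comes from 536 genes with 2 detected probe sets. The pooled SD of log2 ratios within a gene was 0.09, which is smaller than the SD of the difference between the 2. It covers differences between probes and not those between mice or sorts. Of the 8 transporter genes above background in both arrays, 4 had a log2 ratio larger in size than this SD (*Slc7a5*, *Slc7a1*, *Slc7a6* and *Slc38a1*, all below 0). The other 4 (*Slc1a5*, *Slc3a2*, *Slc38a2* and *Slc6a6*) lay within it. Log2 ratios past this SD were common among all detected genes. Of those, 27.0% were at -0.0911 or lower and 19.7% at 0.0943 or higher. The 4 of 8 is therefore not read as different from the background. *Slc38a1* exceeded this SD by its brighter probe set only. The dimmer one (-0.04) and the mean of its probe sets (-0.08) lay within it.

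**Figure D2:**
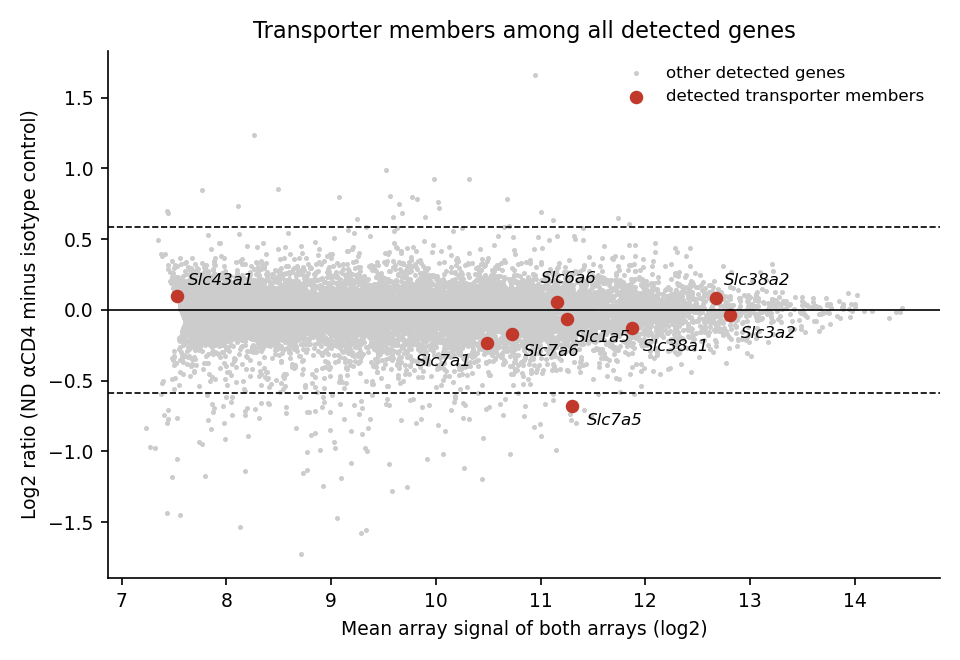
Log2 ratio (ND αCD4 minus isotype control, vertical axis) against the mean log2 signal of both arrays (horizontal axis) for each detected gene (gray) and the 9 detected transporter genes (red), with 0 as a solid line and the 1.5-fold rule as dashed lines. *Slc7a5*, at -0.68, is the transporter gene beyond the dashed lines, and the others lie within the main band of genes.

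Start-site sequence is shown for *Slc7a1*, the next lowest gene after *Slc7a5*, and for *Slc3a2*, the partner chain gene near 0, so that both can be read beside their values. RefSeq sequence (GRCm38.p6) of 250 bases before to 50 bases after a start site was matched for 6 of the 10 genes, in 8 windows: *Slc3a2*, *Slc7a1*, *Slc7a6*, *Slc1a4*, *Slc38a2* and *Slc43a1*. It is that of the reference strain and not of NOD mice. *Slc7a1* has 2 windows, of which chr5:148399855-148400154 is printed and chr5:148392766-148393065 held none of the motifs searched. The *Slc3a2* window is chr19:8713848-8714147, and all 3 are on the minus strand, read 5′ to 3′. Capitals mark a CCAAT box, read here on the opposite strand.
Slc7a1: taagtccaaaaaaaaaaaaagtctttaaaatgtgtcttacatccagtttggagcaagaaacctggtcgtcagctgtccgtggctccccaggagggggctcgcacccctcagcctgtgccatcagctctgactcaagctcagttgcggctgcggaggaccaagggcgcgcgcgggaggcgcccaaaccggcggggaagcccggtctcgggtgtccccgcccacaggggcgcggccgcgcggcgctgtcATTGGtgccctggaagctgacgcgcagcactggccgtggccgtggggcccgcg
Slc3a2: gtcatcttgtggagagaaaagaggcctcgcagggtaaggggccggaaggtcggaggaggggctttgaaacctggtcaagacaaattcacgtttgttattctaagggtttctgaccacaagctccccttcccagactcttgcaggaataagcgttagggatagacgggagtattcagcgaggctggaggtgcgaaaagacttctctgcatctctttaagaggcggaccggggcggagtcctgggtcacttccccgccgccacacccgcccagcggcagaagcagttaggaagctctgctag

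Motifs were searched on both strands, and a match is a description of letters, not a site in use. CCAAT was in 3 of the 8 windows (1 each of *Slc7a1*, *Slc1a4* and *Slc43a1*), near the share of 37.4% over 32851 windows in all. The E-box CACGTG, the letters bound by Myc with Max, was in 1 of the 8 windows, that of *Slc43a1*, against 7.15% of all windows. TGATGNAA, the core of the amino acid response element bound by ATF4, was in 1 of the 8, that of *Slc1a4*, against 3.97% of all windows. TGGAAA, the core of the tonicity element of the taurine transporter's regulator NFAT5, was in 0 of the 8, against 21.4% of all windows. The taurine transporter gene *Slc6a6* had no window, nor did *Slc7a5*, so these counts say nothing about either. The windows of *Slc7a6* overlap each other, so the 8 are not all separate sequences.

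In the wider group of amino acid transporters of the plasma membrane, no member passed 1.5-fold. Over all detected genes 1.01% were lower and 0.212% higher by this rule, so counts of 0 in lists this short say little. Of 35 listed genes, 16 were detected, with a median log2 ratio of -0.0025. Above 0 were 8 (against 46.7% of all detected genes) and below 0 were 8 (against 52.7%). Apart from *Slc43a2*, the log2 ratios largest in size were those of *Slc6a9*, which encodes a glycine transporter, and *Slc36a3*. Both exceeded background in the isotype control array only, and they were at least 1.22-fold and at least 1.08-fold lower. Of 12 transporters of lysosomes and other inner membranes, 11 were detected, with 0 past 1.5-fold and a median of -0.03. *Slc36a4* was at -0.20, *Slc66a1*, which encodes the lysosomal exporter of cationic amino acids, at -0.11, and *Slc36a1*, a proton-coupled lysosomal carrier gene, at 0.12.

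All 12 carriers of the mitochondrial inner membrane were detected. Their log2 ratios were below 0 for 9 and above 0 for 3, where 52.7% of all detected genes were below 0, with a median of -0.13. No carrier gene reached 1.5-fold, where 1.01% of all detected genes were lower and 0.212% higher by this rule. *Sfxn1*, which encodes a serine transporter of mitochondria, had signals of 11.33 with isotype control and 10.93 with ND αCD4, a log2 ratio of -0.40. *Slc25a13*, a gene for the aspartate and glutamate carrier, was at -0.31. *Slc25a2*, an ornithine carrier gene, was at 0.48, with signals of 7.70 and 8.17 that start close to background.

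Of 18 detected genes of ATF4 and amino acid synthesis, 4 were at least 1.5-fold lower, against 1.01% of all detected genes. By this rule 0 were higher, against 0.212%. Below 0 were 11 of the 18, against 52.7% of all detected genes, and the median was -0.12. *Shmt1*, the cytosolic enzyme that interconverts serine and glycine, had signals of 9.84 with isotype control and 8.84 with ND αCD4 and was 2.00-fold lower. *Psat1*, an enzyme of serine synthesis, was 1.59-fold lower, and *Asns*, asparagine synthetase, was 1.58-fold lower. The fourth was *Ddit4*, 1.63-fold lower, whose product restrains mTORC1 and makes no amino acid.

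Of 16 detected genes of amino acid use, 1 was at least 1.5-fold lower and 0 higher, and the median was -0.09. The shares over all detected genes were 1.01% lower and 0.212% higher. The lower gene was *Bcat1*, the cytosolic aminotransferase that acts on leucine, isoleucine and valine. It had signals of 9.27 with isotype control and 8.27 with ND αCD4, 2.01-fold lower. *Odc1*, which turns ornithine into a polyamine, was at -0.41 and *Bckdhb*, a subunit of the branched-chain ketoacid dehydrogenase, at -0.40.

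The cytosolic aminoacyl-tRNA synthetases, which load amino acids onto tRNA, had log2 ratios below 0 in 17 of 18 detected genes, against 52.7% of all detected genes. Their median was -0.24, against -0.01 over all detected genes. None reached 1.5-fold, where 1.01% of all detected genes were lower and 0.212% higher by this rule. The lowest were *Rars* for arginine at -0.39, *Mars1* for methionine at -0.32 and *Kars* for lysine at -0.32. The list of amino acid sensing genes also holds *Rheb* and the mTORC1 subunit genes *Mtor*, *Rptor* and *Mlst8*. Its 32 detected genes had a median of 0.01, with none past 1.5-fold. Above 0 were 17 (against 46.7% of all detected genes) and below 0 were 15 (against 52.7%). The log2 ratios largest in size in this list were those of *Fnip2*, a partner of folliculin, at -0.29, *Seh1l*, a subunit of the GATOR2 complex, at -0.26 and the Rag GTPase gene *Rragb* at -0.26.

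**Figure D3:**
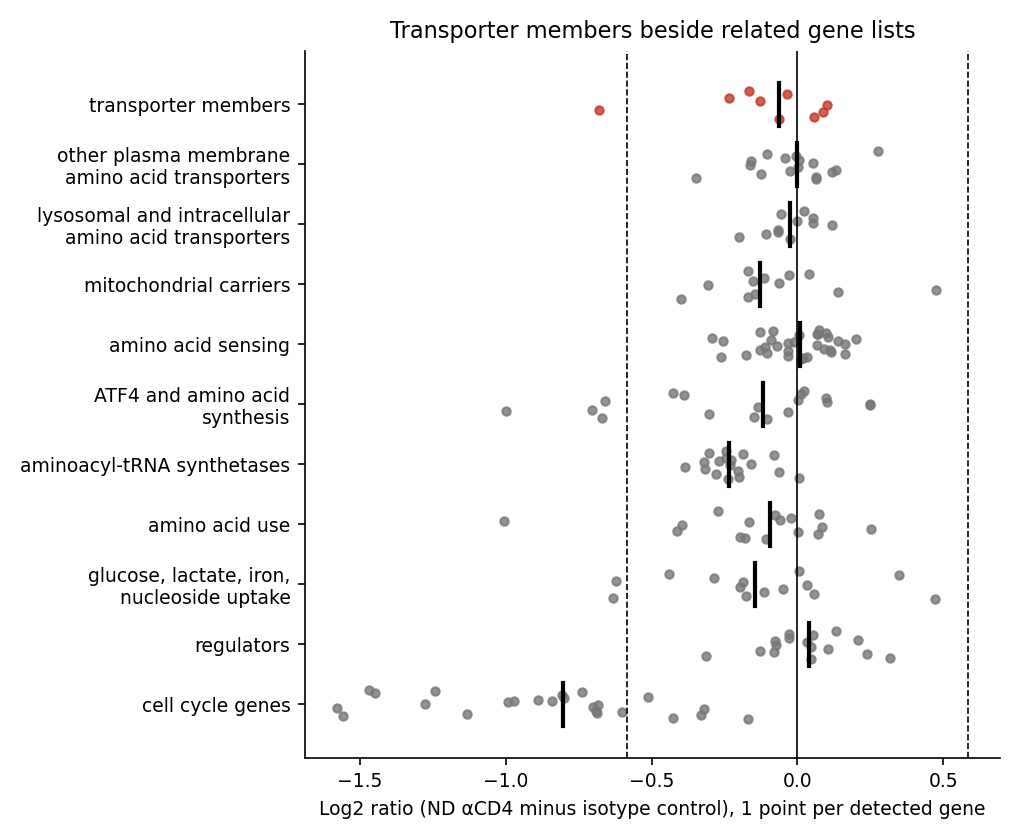
Log2 ratio (ND αCD4 minus isotype control, horizontal axis) of each detected gene in the transporter group (red) and in related gene lists (gray), 1 point per gene, with a thick bar at each list's median, a solid line at 0 and dashed lines at 1.5-fold. The transporter genes have a median of -0.06, the aminoacyl-tRNA synthetases of -0.24 and the cell cycle genes of -0.80. Points are spread vertically for legibility.

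Other features of the arrays differed in the same comparison. All 24 detected cell cycle genes had a log2 ratio below 0, against 52.7% of all detected genes. Of the 24, 19 were at least 1.5-fold lower, against 1.01% of all detected genes, and the median was -0.80. The summed signal of the 24 was 15.01 with isotype control and 14.29 with ND αCD4 on the log2 scale. *Mki67*, a marker of cycling cells, was 2.42-fold lower. The part of cell division in the lower *Slc7a5* signal was not tested.

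All 11 measured T cell markers exceeded background, from 11.82 to 13.76 in the isotype control array and from 11.87 to 13.78 in the ND αCD4 array. *Cd4* was at 13.38 and 13.48. Their log2 ratios lay between -0.10 and 0.13, and none passed 1.5-fold, where 1.01% of all detected genes were lower and 0.212% higher. Markers of CD8 T cells were also present and higher after ND αCD4, with *Cd8a* at 9.67 and 10.39, 1.65-fold higher and past the 1.5-fold rule, and *Cd8b1* at 11.38 and 11.83, and a summed signal of 11.76 and 12.28. Of 9 measured B cell markers, 7 were detected, all with a log2 ratio above 0 (against 46.7% of all detected genes) and none past 1.5-fold. The summed signal over all 9 was 11.51 with isotype control and 11.62 with ND αCD4. *Cd79b* was at 10.34 and 10.44. Of 7 natural killer cell markers 3 were detected, with a summed signal over all 7 of 12.61 and 12.55. *Klrd1*, seen above background with ND αCD4 only, was at least 1.46-fold higher. Counted by measured values, 1 of the 3, *Klrd1*, was past the 1.5-fold rule and higher, against 0.212% of all detected genes, and 0 were lower. *Eomes* went from 11.72 to 11.41, a log2 ratio of -0.31, and *Nkg7* from 11.25 to 11.34. *Eomes* and *Nkg7* were the brightest of the 7 and dominate that sum. Over all 7 natural killer cell markers, 4 of them not detected, the median log2 ratio was 0.32. Detected were also 6 of 12 myeloid markers (summed 11.22 and 11.27), 3 of 8 dendritic cell markers (12.14 and 11.997), 4 of 6 plasma cell markers (11.80 and 11.86), 5 of 8 stromal and endothelial markers (12.50 and 12.55) and 2 of 3 red cell markers (9.21 and 9.29), and none of these passed 1.5-fold. The part of other cells in the transporter values was not tested.

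Under other ways of processing the same values, the transporter genes kept their order of size at the low end. *Slc7a5* lay between -0.68 and -0.66, *Slc7a1* between -0.24 and -0.22 and *Slc7a6* between -0.17 and -0.15. *Slc3a2* lay between -0.04 and -0.0049, so its sign held but its value came close to 0.

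**Figure D4:**
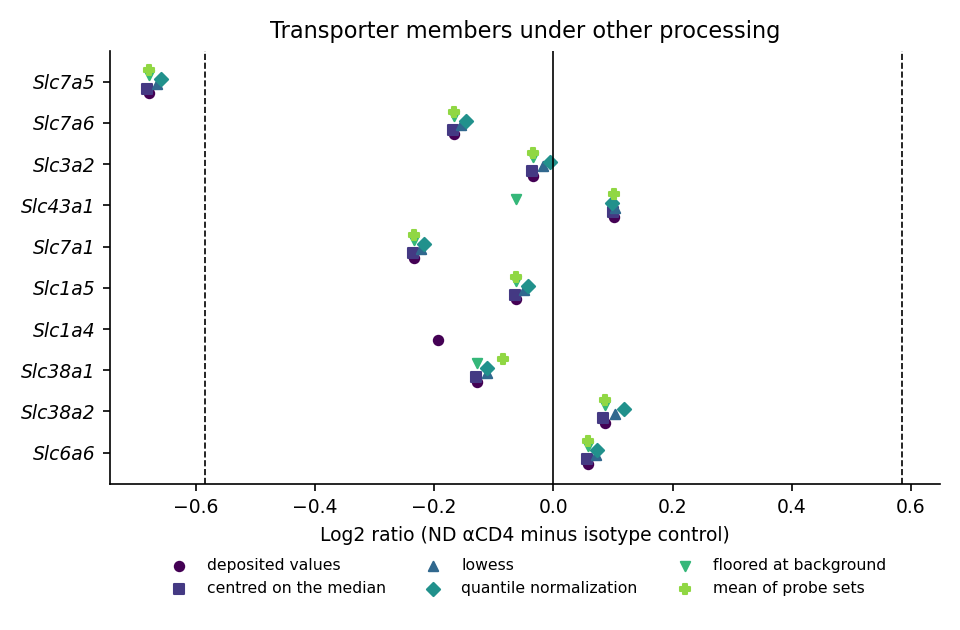
Log2 ratio (ND αCD4 minus isotype control, horizontal axis) of each transporter gene with the deposited values and under 5 other ways of processing them, marked by shape and color, with 0 as a solid line and the 1.5-fold rule as dashed lines. *Slc7a5* stays beyond the dashed line under all 6, *Slc43a1* changes side only when floored at background, and *Slc1a4*, below background in both arrays, is shown with its deposited value only.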

How the data were processed

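Microarray values of sorted PLN CD4+ T cells were analyzed, 1 array for ND αCD4 and 1 for isotype control Ab. The authors deposited log2 signals per probe set (35557 probe sets, 2.52 to 14.7, median 8.15 in both arrays). Affymetrix Expression Console was used per the submitters' processing notes. The sources used here do not give its version, or how signals were background-corrected, normalized and summarized. The log2 scale was inferred from the range. The methods name a later array version than the platform annotation that named the probe sets.

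Probe sets with 1 symbol (21789) were named, of which 21698 were found by gene identifier in RefSeq (GRCm38.p6). Those with several (1621) or no symbol (12147) were left out. No test was run, since 1 array per condition gives none, and no interval is given for the same reason. A gene below background in 1 array has only a bound, computed against that array's background and written as at least N-fold, while counts past 1.5-fold use the measured values. Listed genes without a probe set of their own were not analyzed here.

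The transporter genes and gene lists were chosen with earlier results of these data known. Named are all transporter genes, in each related list the genes past 1.5-fold and the 3 largest in size (at most 5), and some markers. The markers named were not always the brightest of their list. Alternatives were centring on the median, lowess (fraction 0.3, 3 iterations), quantile normalization, a floor at background, averaging of probe sets, all genes without regard to detection, only genes above background with both antibodies, and a 2-fold rule. A log2 ratio counted as moved when the shift exceeded the SD between probe sets. The code was tested on simulated data. Scripts ran in Python 3.11.15 with pandas 2.3.3, numpy 2.4.6, matplotlib 3.10.9 and statsmodels 0.14.6.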

Additional observations from a re-analysis of the deposited data

How the results depend on the processing

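At a 2-fold rule in place of 1.5-fold, 0 transporter genes were lower and 0 higher, and of all detected genes 25 were lower and 2 higher, as a stricter rule must give fewer. With the remaining 7 alternatives, 1 transporter gene was lower and 0 were higher in each, the median of the transporter genes lay between -0.10 and -0.04, and of all detected genes 109 to 134 were lower and 25 to 30 higher. Without the detection filter, 151 of all 19938 genes were lower and 41 higher. The medians of the related lists moved by less than the SD between probe sets, and that of the other plasma membrane transporters, close to 0, ranged from -0.03 to 0.0050. Of the transporter genes, *Slc43a1* moved by more than this SD when floored at background. No paired analysis was possible because each group has 1 array. Signal close to background limits *Slc43a1*, *Slc1a4* and many of the other plasma membrane transporters. A comparison of protein sequences within the transporter families was not run.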

Other observations

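Uptake genes for nutrients other than amino acids included 2 of 14 detected members at least 1.5-fold lower, against 1.01% of all detected genes. By this rule 0 were higher, against 0.212%, and the median log2 ratio was -0.14. *Tfrc*, the transferrin receptor through which dividing cells take up iron, had signals of 10.10 with isotype control and 9.47 with ND αCD4 and was 1.55-fold lower. *Slc16a1*, which encodes the lactate carrier MCT1, had signals of 10.49 and 9.87 and was 1.54-fold lower. *Slc11a2*, a gene for a carrier of divalent iron, was on the other side of 0, with signals of 9.37 and 9.84 and a log2 ratio of 0.47.

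Of 16 detected regulators of the transporters, none passed 1.5-fold, where 1.01% of all detected genes were lower and 0.212% higher by this rule. Above 0 were 9 (against 46.7% of all detected genes) and below 0 were 7 (against 52.7%). The median log2 ratio was 0.04. *Myc*, a transcription factor known to drive nutrient transporters in activated T cells, had signals of 11.99 with isotype control and 11.68 with ND αCD4, a log2 ratio of -0.31. *Tfeb*, a transcription factor of lysosome genes, had signals of 9.22 and 9.54, a log2 ratio of 0.32, and *Nfatc2*, a factor activated through calcium signals, had a log2 ratio of 0.24.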
